A study of Mus musculus with 2 samples.

Results

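The γ and δ chains of the T cell receptor are built from variable (V), diversity (D, δ only), joining (J) and constant (C) gene segments, and these segments were followed in Vγ6 γδ T cells from the newborn thymus. They were taken as every row of the deposited array table whose platform symbol names a segment of the mouse γ locus (Tcrg-, Trgv, Trgj, Trgc) or δ locus (Trdv, Trdd, Trdj, Trdc), rows that name several segments included. This gave 16 of 65956 rows, 10 for the γ locus and 6 for the δ locus. They carry 23 of the 26 segments that RefSeq lists in assembly GRCm38.p6 under Trgv, Trgj, Trgc, Trdv, Trdd, Trdj or Trdc symbols. V segments with a Trav symbol fall outside this rule. Trdv3, Trdd1 and Trdd2 have no row and were not analysed here. Symbols are given as in RefSeq, so that Trgv6 stands for the platform's Tcrg-V6.

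RNA came from cells stained with antibodies and sorted as Vγ6 γδ T cells from thymi of 0-day-old C57BL/6 mice. The WT group was wild type, and the MHC class II KO group lacked MHC class II, the peptide-presenting proteins that CD4 T cells recognise. The labels do not give the disrupted class II gene, the antibodies of the sort or whether animals were pooled. Each group was 1 array, 2 in all, so no difference below has an error, a test or a replicate check. In sorted bulk RNA, fewer cells that use a segment and less of its RNA per cell cannot be told apart.

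Mouse γδ T cells arise in waves, each marked by the Vγ segment it uses. Vγ5 cells appear first in the fetal thymus and settle in the epidermis, and Vγ6 cells follow and settle in mucosal tissues and the dermis, where many make interleukin 17. Both pair with the Vδ1 chain, encoded by Trdv4. Later waves use Vγ1, Vγ4 and Vγ7, the last of them typical of the intestinal epithelium. In RefSeq gene order the γ locus starts with Trgv7, Trgv4, Trgv6 and Trgv5, which share Trgj1 and Trgc1. The Trgv3, Trgj3 and Trgc3 group follows, then Trgc2, Trgj2 and Trgv2 in turned order, and last Trgv1, Trgj4 and Trgc4. A receptor transcript needs a joined V, J and C, but unjoined segments are also transcribed in immature T cells, and an array row does not separate joined from unjoined RNA.

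The segment rows mostly differed little between the arrays, with 1 exception, Trgv7, which was 2.16-fold higher in the MHC class II KO cells. Its neighbours Trgv4, Trgv6 and Trgv5 were lower there by 1.20-fold to 1.24-fold. The δ rows above background were higher by 1.10-fold to 1.17-fold, Trdv4 among them. The rows that hold the γ constant regions differed by less than 1.13-fold either way.

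Signals are linear array intensities as deposited, shown here as log2, and each difference is MHC class II KO minus WT on that scale. Background was the 95th percentile of 1228 rows of olfactory receptor genes, taken as silent in T cells. The background log2 signals were 5.94 (WT) and 5.86 (MHC class II KO). Of the 16 segment rows, 14 were above it on both arrays and 2, Trdv1 and Trdv5, on neither. One of the 14 reached 2-fold in favour of the MHC class II KO cells, against 1.24% of all 27053 rows above background on at least 1 array. None of the 14 was 2-fold lower or beyond, against 1.35% of those rows. At 1.5-fold the segment counts were also 1 higher and 0 lower, against 5.42% and 5.56% of all rows. The median difference of the 14 was 0.04, beside 0.01 over all rows above background, and 9 of 14 differences were above 0, against 50.8% of all rows. The sign of that median rests on the rows that name several segments, since it was -0.01 without them.

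**Figure D1:**
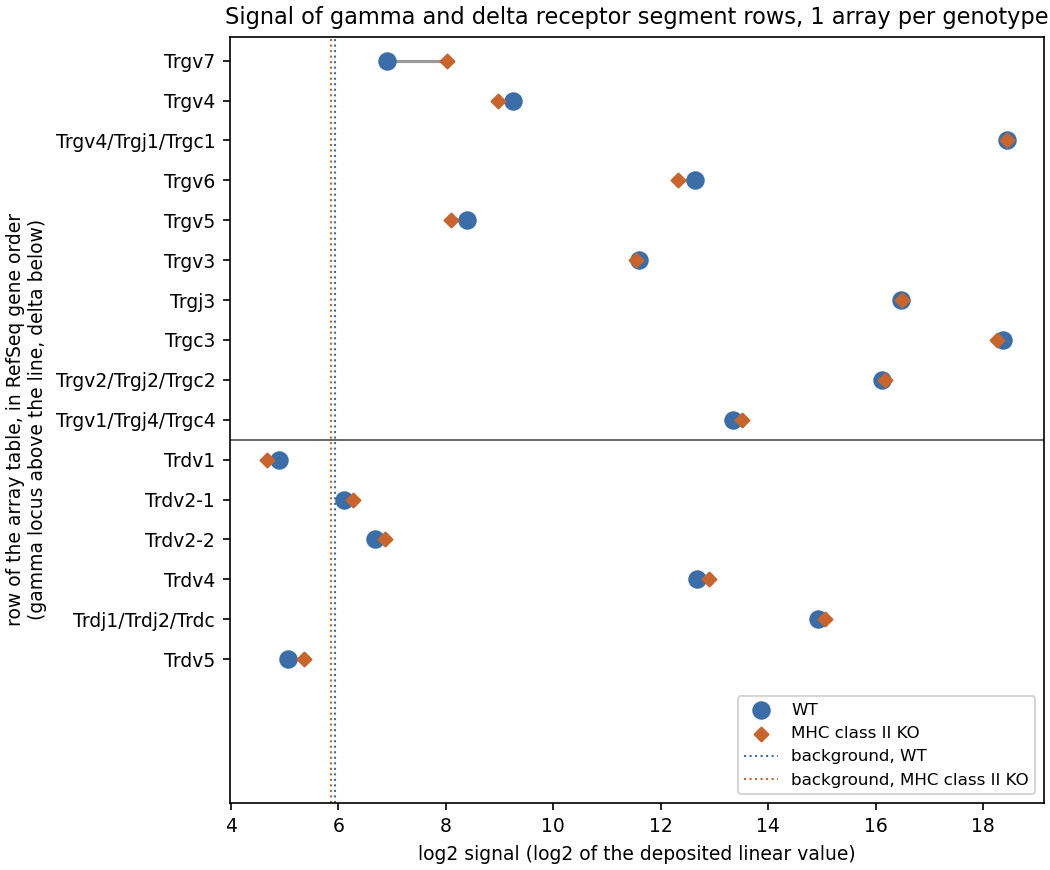
Log2 signal (x axis) of each of the 16 segment rows (y axis, in RefSeq gene order, γ locus above the line and δ locus below), with a circle for the WT array and a diamond for the MHC class II KO array, and dotted lines at each array's background. Trgv7 has the widest gap, from 6.90 to 8.01, and Trdv1 and Trdv5 lie left of the background lines. Probes of different rows bind differently, so levels of different rows are not to be compared.

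Among the V segments with a row of their own, Trgv6, which encodes the V domain of the chain used for the sort, had log2 signals of 12.64 in WT and 12.33 in MHC class II KO cells. It was above background on both arrays, and the difference was -0.31, or 1.24-fold lower in the MHC class II KO cells. A difference of this size or larger in either direction was found in 32.2% of all rows above background.

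Trgv5, the V segment of the epidermal wave, had log2 signals of 8.39 in WT and 8.10 in MHC class II KO cells, a difference of -0.30. Trgv4, used by a later wave that also includes interleukin 17 producers, went from 9.25 to 8.98, a difference of -0.27. Trgv6, Trgv5 and Trgv4 were therefore lower to nearly the same degree. Under quantile normalization their differences were -0.35, -0.33 and -0.32. No array repeats the measurement, but 107 other genes with a pair of separate rows above background on both arrays show how far 2 rows of the same gene can lie apart. The gap between their differences had an SD of 0.28 and a median size of 0.13. The SD was above the size of the Trgv4 difference and below those of Trgv6 and Trgv5, and the median was below all 3. The 90th percentile of the gap size, 0.45, was above all 3. Such gaps compare rows on the same 2 arrays, so they do not measure the spread between animals or arrays.

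Trgv7, the first segment of the locus and the V segment of intestinal γδ T cells, went the other way. Its log2 signal was 6.90 in WT and 8.01 in MHC class II KO cells. The difference of 1.11 was at least matched in size by 1.88% of all rows above background. The row was above background on both arrays, so the fold is not a bound, and the difference lay between 1.10 and 1.11 under the 3 other scalings. The WT signal of this row was low, however, at 119 against a WT background of 61.3, so the size of the fold is uncertain. Trgv3, which belongs to the same subfamily as Trgv1 and Trgv2, hardly differed, with 11.59 in WT and 11.54 in MHC class II KO cells (difference -0.04). Because close relatives in sequence can bind each other's probes, the Trgv3 row may also hold signal from Trgv1 and Trgv2, which was not tested.

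The J and C segments of the γ locus lie on rows that mostly span several segments. The row shared by Trgv4, Trgj1 and Trgc1, which includes the constant region that Vγ6 chains use, had a log2 signal of 18.44 on both arrays and a difference of 0.00. That value fell below 0 when differences were centred on their median (-0.01) and under quantile normalization (-0.02). The deposited signal of the row was above 65535, the highest reading of a 16-bit scanner, on both arrays. Differences of such bright rows were small in general, as given below. The value near 0 therefore does not show that these segments were unchanged.

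Trgc3, generally held not to give a working chain, went from 18.38 to 18.27 (difference -0.11), and its J segment Trgj3 from 16.47 to 16.49 (0.02). The row of Trgv2, Trgj2 and Trgc2 went from 16.11 to 16.17 (0.05). The row of Trgv1, Trgj4 and Trgc4, the cluster of the Vγ1 wave, went from 13.34 to 13.51 (0.17). It was the γ row with the highest difference after Trgv7. The Trgc1, Trgc2 and Trgc3 regions are closely similar in sequence, so their rows cannot be read as separate measurements.

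Bright rows on these arrays differed little in general. The rows of Trgj3, Trgc3, Trgv4/Trgj1/Trgc1 and Trgv2/Trgj2/Trgc2 were above 65535, the highest reading of a 16-bit scanner, on both arrays. Among the 721 rows above that value on both arrays, the middle 95% of differences ran from -0.23 to 0.27. For the other 26332 rows above background it ran from -0.81 to 0.81. A difference of the size seen for Trgv6 would thus stand outside that middle range among the brightest rows, but lay inside it among rows of its own brightness, where the range was -0.69 to 0.67. When rows were sorted into bands of 1 log2 unit of mean signal, 5 of the 14 segment rows fell in the middle 50% of their band, 8 more in the middle 95%, and 1, Trgv7, outside it.

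**Figure D2:**
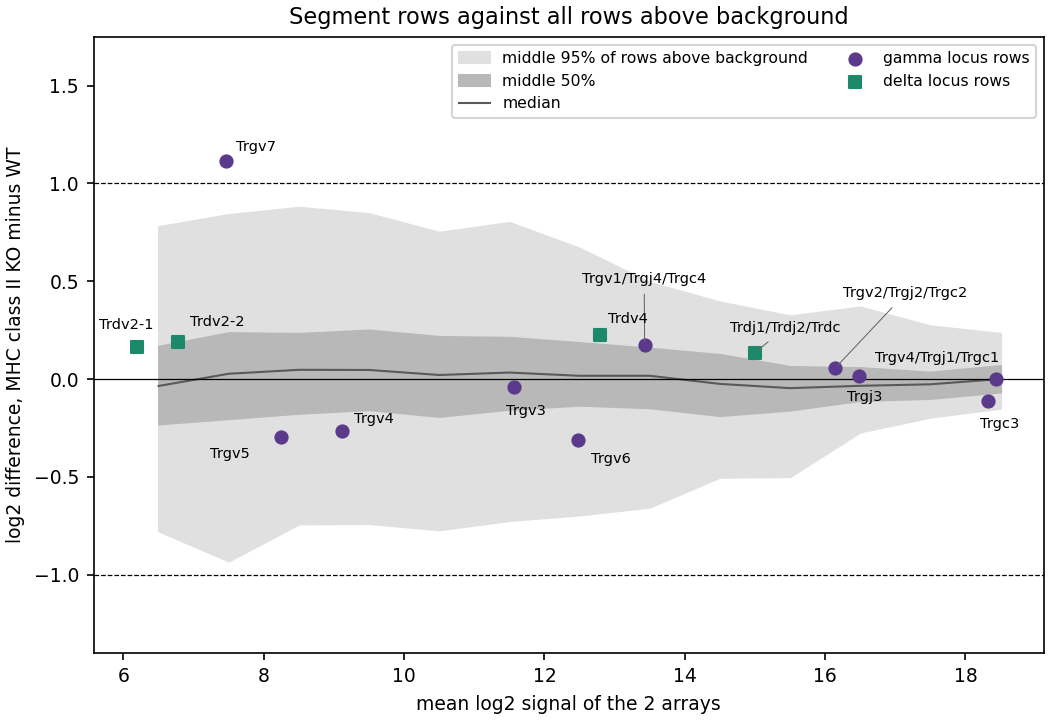
Log2 difference between the arrays (y axis, MHC class II KO minus WT) against mean log2 signal (x axis) for the 14 segment rows above background, circles for the γ locus and squares for the δ locus. Shading shows the middle 50% and middle 95% of all rows above background in bands of 1 log2 unit, and dashed lines mark 2-fold. Trgv7, at 1.11, is the segment outside the shading of its band. The shading narrows to the right, where the γ constant region rows lie.

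In the δ locus, Trdv4, which encodes the Vδ1 domain that pairs with Vγ6 and Vγ5, had log2 signals of 12.68 in WT and 12.90 in MHC class II KO cells. Its difference was 0.22, or 1.17-fold higher. The row that holds Trdj1, Trdj2 and the constant region Trdc went from 14.93 to 15.06 (difference 0.13). Trdc has no row of its own, so that row is the measure of the δ constant region here.

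Trdv2-1 and Trdv2-2, V segments that lie before Trdv4 in the locus, had differences of 0.16 (from 6.11 to 6.27) and 0.19 (from 6.68 to 6.87). Both were close to background, and with background at the 99th percentile neither counted. Trdv1 had log2 signals of 4.89 and 4.67, and Trdv5, which lies behind Trdc in turned order, 5.05 and 5.36. Both stayed below background, so no fold is given for them. All 4 δ rows above background had differences above 0, against 50.8% of all rows above background, with a median of 0.17. Differences of at least their size were found in 45.9% (Trdv4) to 64.5% (Trdj1/Trdj2/Trdc) of all rows above background. The 5 γ rows with a V segment alone had a median of -0.27, although Trgv7 among them stood at 1.11. For the 5 γ rows with a J or C segment it was 0.02.

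Vγ6 and Vδ1 form the receptor of these cells as a pair, and their segments differed in opposite directions. The difference of Trdv4 exceeded that of Trgv6 by 0.53, a ratio of 1.45-fold between the arrays. The gap was 0.55 under quantile normalization and 0.54 with a loess correction. Centring differences on their median shifts both rows alike and cannot alter it. Trgv5, the other partner of Vδ1, differed from Trgv6 by only 0.02 in its difference. The differences of Trdv4 and Trgv6 each lay inside the middle 95% of rows of similar brightness. With 1 array per group, the values do not show that either segment changed.

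The segments are transcribed and joined by other genes, which were looked at as fixed lists. The receptor reaches the surface with the CD3 complex, and 4 of its 5 listed genes were above background. Cd3e, Cd3d and Cd247 had differences of -0.04, 0.08 and -0.05, and Cd3g, the CD3γ chain, 0.30, with log2 signals of 15.89 and 16.19. None was 1.5-fold apart. The signal adaptor Fcer1g was below background on both arrays.

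Of 11 genes of V(D)J recombination, 8 had a row of their own and 7 were above background. Each of the 7 was higher in the MHC class II KO cells, by a median of 0.58, while 50.8% of all rows above background were higher there. At 1.5-fold, 2 of the 7 were higher, against 5.42% of all rows above background. Dntt encodes terminal transferase, which lengthens the joins with extra nucleotides and is little used in fetal γδ rearrangement. It passed background in the MHC class II KO cells but not in WT, and was higher by at least 3.68-fold. Genes of end joining came next. Lig4, the DNA ligase that seals the joins, went from 7.20 to 8.15 (difference 0.96). Xrcc6 and Nhej1, which hold and align broken ends, each had a difference of 0.58. Prkdc, Xrcc5 and Xrcc4 had differences of 0.17, 0.21 and 0.26. Rag2, which with Rag1 makes the cut, was below background on both arrays. Rag1 and Hmgb1 lie on rows shared with other symbols, Dclre1c matched no row, and none of the 3 was used.

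Of 15 genes known to act on the loci or on γδ differentiation, 13 had a row and all of those were above background, with a median difference of 0.05 and none 2-fold apart. Il7r, the interleukin 7 receptor chain whose signal opens the γ locus, went from 14.76 to 15.26 (0.50). The factors that carry this signal, Stat5a and Stat5b, had differences of -0.03 and -0.02. Bcl11b, a T lineage factor, stood highest at 0.66 and Lef1, an HMG-box factor, lowest at -0.51. Runx1, Runx3 and Myb, of the families that bind the δ enhancer, had differences of 0.05, 0.02 and 0.37. The E proteins Tcf3 and Tcf12 had 0.16 and -0.07, their inhibitors Id2 and Id3 -0.08 and 0.37, and Sox13, a γδ lineage factor, 0.14. Gata3, on a shared row, and Tcf7, which matched none, were not used.

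The genes beside the loci did not share one direction. Stard3nl, which adjoins the γ locus, went from 7.93 to 8.46 (0.52). Amph and Epdr1 near the γ locus were below background. Behind the α constant region, which follows the δ segments, Dad1, Abhd4 and Oxa1l had differences of -0.05, -0.15 and 0.31. The δ locus lies within the locus of the α chain, and rows of V segments of that locus had a median of -0.06 (63 of 100 rows above background), while rows of its J segments had 0.17 (15 of 18 rows). Both sets were wide, from -1.63 to 0.91 for the V rows and from -1.46 to 1.73 for the J rows.

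**Figure D3:**
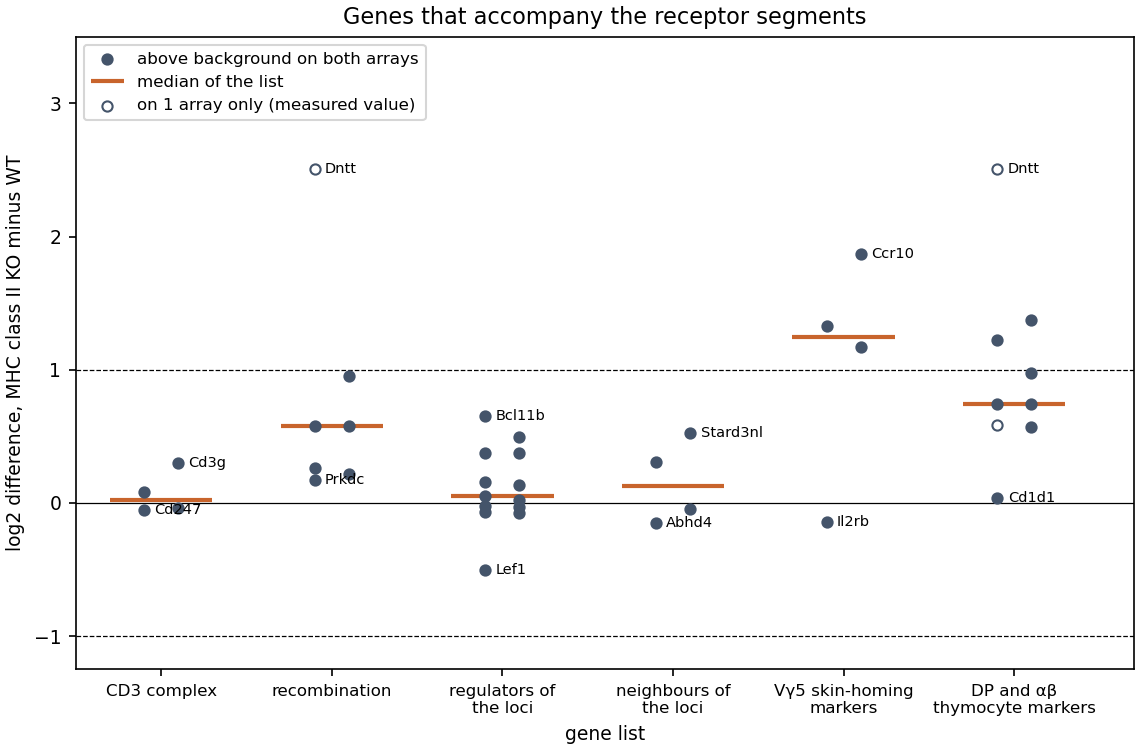
Log2 difference between the arrays (y axis, MHC class II KO minus WT) of each gene above background in 6 lists (x axis), with open points for genes above background on 1 array only, orange bars at list medians and dashed lines at 2-fold. DP stands for double positive. The recombination genes and the thymocyte markers lie above 0, with medians of 0.58 and 0.74, and the CD3 genes lie close to 0.

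Markers of the sorted cells and of others that the sort could hold were set beside the segments. The 12 markers of interleukin 17-type Vγ6 cells that were used were above background on both arrays, among them the scavenger receptor gene Cd163l1 (difference 0.01) and the transcription factor gene Maf (0.03). The cytokine genes Il17f and Il17a were lower in the MHC class II KO cells by more than 2-fold, with differences of -2.88 and -1.57, and the chemokine receptor gene Ccr6 was higher by 1.46. The other 9 were less than 2-fold apart. At 2-fold, 1 of the 12 was thus higher and 2 were lower, against 1.24% and 1.35% of all rows above background. The median of the 12 was 0.02, and their summed signal was 185875 in WT and 185064 in MHC class II KO cells. Most of that sum came from Il23r, Cd163l1 and Maf, so it says little about the other markers.

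Of 4 genes typical of Vγ5 thymocytes on the way to the skin, 3 were at least 2-fold higher in the MHC class II KO cells. This compares with 1.24% of all rows above background. Ccr10, Ccr4 and Tbx21 were higher by 1.87, 1.33 and 1.17, and Il2rb had a difference of -0.14. The WT signal of Tbx21 was low, at 70.6 against a WT background of 61.3, so the size of its fold is uncertain. The 4 had a summed signal of 27775 in WT and 26178 in MHC class II KO cells, most of it from Il2rb. On the same arrays the Vγ5 segment itself had a difference of -0.30. Whether Vγ5 cells had any part in the segment values was not tested.

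Of the 14 listed markers for double positive or αβ thymocytes, 10 had a row and 9 were above background. All 9 had differences above 0, against 50.8% of all rows above background, with a median of 0.74. The summed signal of the 10 rows was 13555 in WT and 32920 in MHC class II KO cells, most of it from Cd8b1. Rag2 was below background on both arrays, and Dntt and Ptcra on the WT array. The recombination genes were higher on the array where these markers were higher, and Dntt and Rag2 stand on both lists. The part of these cells in the values of Trgv7, the δ rows and the recombination genes was not tested.

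Among markers of other cells with a row, 2 of 5 passed background for B cells, 3 of 8 for dendritic cells and macrophages, and 2 of 6 for thymic epithelium. Of all 65956 rows, 27053 were above background on at least 1 array, so these counts do not show that such cells were absent. The red blood cell marker with a row of its own, Alas2, was below it on both arrays. Summed over the markers with a row, B cell signal was 16729 in WT and 42478 in MHC class II KO cells, nearly all of it from Ighm (difference 1.41). Cd79b, which encodes a chain of the B cell receptor complex, was above background on both arrays as well, with log2 signals of 10.08 and 10.19, while Cd79a, Ms4a1 and Pax5 were below it on both. For dendritic cells and macrophages the sums were 567 and 816, for thymic epithelium 252 and 179, and for red blood cells 44.2 and 42.3. These sums include the rows below background. Cd68, a macrophage marker above background on both arrays, had signals of 259 in WT and 486 in MHC class II KO cells. The epithelial markers Epcam and Krt8 passed background on the WT array only. The part of such cells in the segment values was not tested.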

How the data were processed

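Gene expression was measured on whole-transcript GeneChip arrays, 1 per genotype. The deposited values are linear intensities, which the authors made with RMA in Affymetrix Expression Console 1.4.1, per the submitters' processing notes. The settings and genome build were not given in the sources used here, so no coordinates are printed. The values ran up to 480711 (WT) and 487523 (MHC class II KO), past the 65535 of a 16-bit scanner, so the size of every fold rests on a scale known only in part. Where the mean log2 signal was above 12, 100% of the values on each array were powers of 2 with an exponent of 5 decimals.

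Symbols came from the platform annotation and were updated through the RefSeq gene table. Repeated symbols of a row count once, and for list genes the brightest row with that symbol alone was used. Differences of log2 signals were computed with Python 3.11.15, numpy 2.4.6, pandas 2.3.3 and statsmodels 0.14.6. A call is a difference of at least 2-fold in a row above background on at least 1 array. With 1 array per group there is no test, and no gene of similar pattern was sought. All segment rows are named, as are the genes of the CD3, recombination, regulator and neighbour lists, whatever their values. Marker lists are given by counts, sums and examples, and 1 marker is not reported here. Members and lists were chosen with earlier results of these data known. On simulated data with the levels of the 65956 rows, 98 of 100 rows raised by 1.5 (log2) and 97 of 100 lowered by it were called. The altered rows were drawn from rows above background with a mean log2 signal over 8, so dimmer rows such as Trgv7 were not covered. Noise was set from the spread of differences between these 2 arrays, so the simulation is no replicate check. The number of arrays limits the precision.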

Additional observations from a re-analysis of the deposited data

How the results depend on the processing

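The counts of segment rows 2-fold or more higher (1) and lower (0) were recomputed with quantile normalization, differences centred on their median, a loess correction (fraction 0.3), values under background raised to it, background at the 90th or 99th percentile or required on both arrays, no background filter, rows with several segments left out, identical rows counted once, and thresholds of 1.5-fold and 3-fold. The higher count was 0 at 3-fold, since Trgv7 was 2.16-fold higher, and neither count changed otherwise. The median of the segment rows ranged from -0.01 (rows with several segments left out) to 0.06 (quantile normalization). The largest shift of a segment difference was 0.052 (Trdv2-1 under quantile normalization), and of 14 recomputed under the 3 scalings and with values raised to background 1 changed sign, that of the Trgv4/Trgj1/Trgc1 row. No paired analysis was possible because each group has 1 array. No replicate could be left out for the same reason.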
